A study of Mus musculus with 22 samples.

Results

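Fibronectin (Fn1), vitronectin (Vtn), tenascin-C (Tnc), tenascin-X (Tnxb), periostin (Postn), the TGF-beta-induced protein (Tgfbi) and osteonectin (Sparc) were followed through the growth of granulation tissue in WT and Mmp13-/- mice. The genes were taken by name as glycoproteins of the provisional and maturing wound matrix, with earlier results of these data known. Every probe set that the platform annotation gives to a single member was used, which made 15 of 45037 probe sets and 7 of 18193 genes. A cellulose sponge lay under the dorsal skin of male mice aged 5 to 8 weeks, and RNA came from the ends of sponges removed 7, 14 and 21 d later. The Mmp13-/- mice carried a germline knockout of collagenase-3, a matrix metalloproteinase, and the WT mice descended from backcrossed heterozygotes. The labels call the background of both genotypes C57BL/6 x 129 mixed, while the design text gives at least 7 generations of backcrossing to C57BL6. There were 3 arrays per genotype at 7 d and 4 per genotype at 14 d and at 21 d, each from 1 sample of a mouse.

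Fibronectin and vitronectin are adhesive glycoproteins that carry the RGD motif through which integrins hold cells, fibronectin as fibrils assembled by fibroblasts and vitronectin mostly as a plasma protein made by the liver. Tenascin-C appears in wounds and lowers cell adhesion, whereas tenascin-X is a constitutive protein of loose connective tissue that binds collagen fibrils. Periostin and Tgfbi share fasciclin domains and bind collagen, fibronectin and integrins, and Sparc is a collagen-binding protein of remodelling tissue. The last 3, like fibronectin and tenascin-C, are known targets of TGF-beta in fibroblasts.

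The values are RMA log2 signals, on which 1 unit is a change of 2-fold, and levels of different genes cannot be set against each other because each probe set has its own response. Array medians ran from 4.16 to 4.27. The arrays were hybridized in 2 series that differed in labelling kit and in RNA input. The input was 2000 ng for the 12 arrays of series 1 (all of 7 d and replicates 1 to 3 of 14 d). It was 250 ng for the 10 arrays of series 2 (replicate 4 of 14 d and all of 21 d). Comparisons of 21 d with 14 d therefore rest on a series term that only 2 arrays of 14 d set. Differences between days are fitted with that term and can depart from the plain difference of the means. Mmp13 itself was lower on every Mmp13-/- array than on every WT array of its day, with ranges of 7.91 to 8.51 and 11.58 to 11.87 at 14 d. Fibroblast markers were bright in all groups, with an array mean of 10 genes between 10.05 and 10.51, and so were macrophage markers, with a mean of 7 genes between 10.81 and 11.26. Tissue from a sponge holds many cell types, and fewer cells of a type cannot be told apart from less RNA per cell.

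At the brightest probe set of each gene, all 7 genes had a lower mean in Mmp13-/- than in WT tissue at 14 d, against 3 of 7 at 7 d and 6 of 7 at 21 d. Among the 7, Tnxb and Vtn had been named by the study as lower at 14 d on these same arrays, so the count is not independent evidence. Over all 15 probe sets, 4 had a negative difference at 7 d, 13 at 14 d and 8 at 21 d. The median difference of the 7 genes at 14 d was -0.27 on the log2 scale, while that of all probe sets was 0.0075. Across the whole table, 52.3% of probe sets had a negative difference at 7 d, 47.4% at 14 d and 50.2% at 21 d. No member passed limma's test at an adjusted p under 0.05 between genotypes at any day. Such calls were made for 0.00888% of probe sets at 7 d, 0.0178% at 14 d and 0.0488% at 21 d, and the members had 0, 4 and 1 of their 15 probe sets at an unadjusted p under 0.05, where the whole table had 2.16%, 3.98% and 11.9%. The 4 at 14 d belonged to Tnxb, Vtn and Sparc and were all lower in Mmp13-/- tissue, a direction and threshold met by 2.22% of all probe sets. The Mmp13-/- arrays at 14 d lay below all WT arrays at 4 of the 15 probe sets, those of Tnc, Tnxb, Sparc and Vtn that are brightest for their gene, and this pattern was seen at 1.9% of all probe sets. A two-sided exact permutation test was made for each probe set at each day, 45 in all. The 15 tests of 7 d could not go below 0.1, the smallest p that 3 against 3 arrays allow. Of the 15 at 14 d and the 15 at 21 d, 4 and 2 reached 0.0286, the smallest p that 4 against 4 arrays allow. These 6 are the cases in which the genotypes did not overlap, so that p restates the separation.

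**Figure D1:**
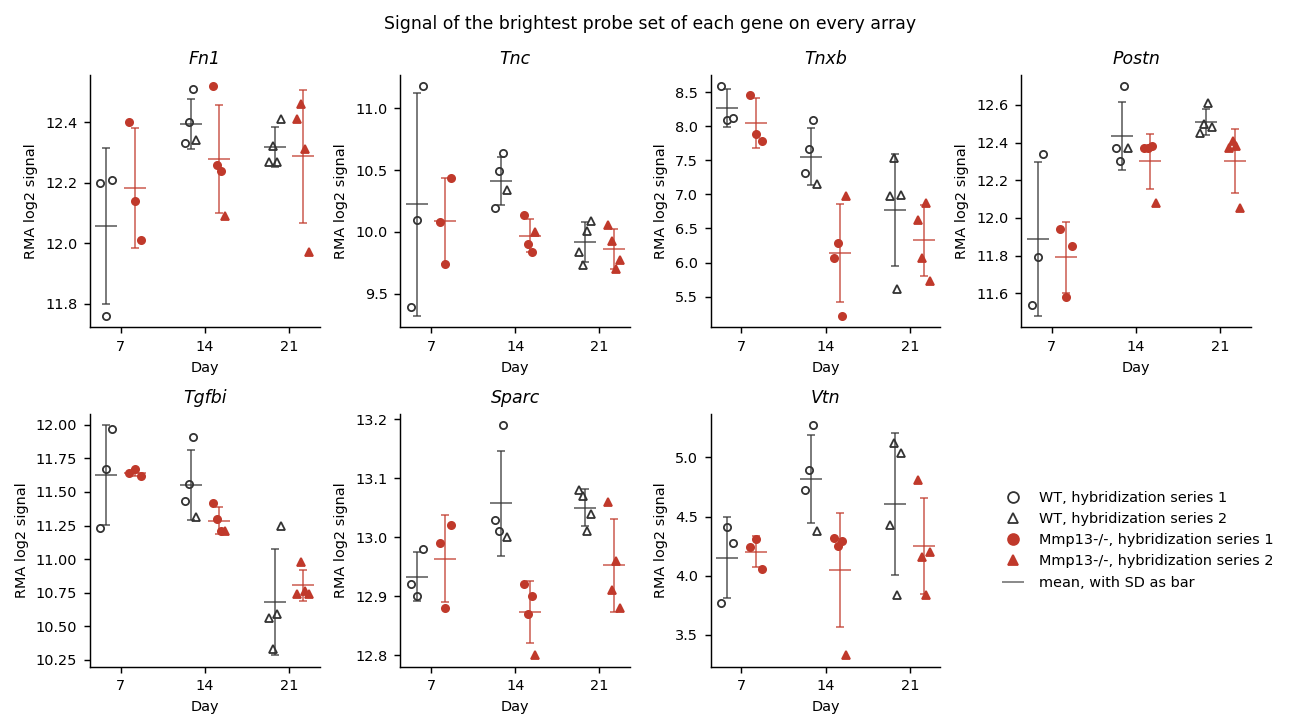
RMA log2 signal (vertical axis, own scale per panel) of the brightest probe set of each of the 7 genes on every array by day (horizontal axis), with WT open and Mmp13-/- filled, circles for hybridization series 1 and triangles for series 2, and the mean with its SD. At 14 d the Mmp13-/- points of Tnc, Tnxb, Sparc and Vtn lie below all WT points, while those of Fn1, Postn and Tgfbi overlap with WT.

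**Figure D2:**
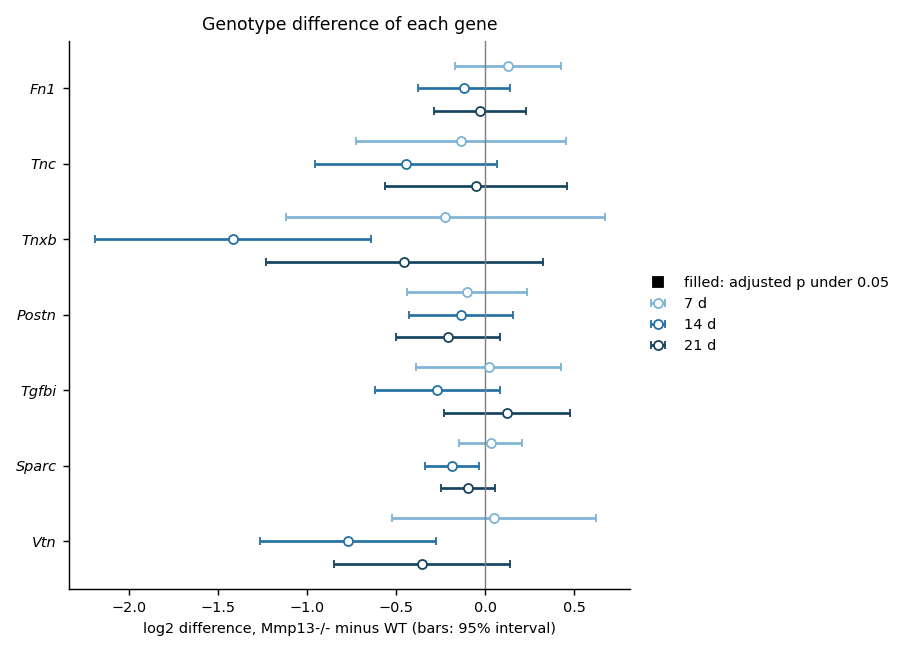
Log2 difference of Mmp13-/- minus WT (horizontal axis) with its 95% interval from limma for each gene (vertical axis) at 7, 14 and 21 d. The intervals of Tnxb, Sparc and Vtn at 14 d lie below 0, and no difference reached an adjusted p under 0.05.

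Fibronectin was abundant in every group and varied little. The WT arrays of 7 d read 12.20, 11.76 and 12.21, those of 14 d 12.33, 12.40, 12.51 and 12.34, and those of 21 d 12.27, 12.32, 12.27 and 12.41. The Mmp13-/- arrays read 12.40, 12.14 and 12.01 at 7 d, 12.52, 12.26, 12.24 and 12.09 at 14 d, and 12.41, 12.46, 12.31 and 11.97 at 21 d. The genotypes overlapped at every day, and so did each neighbouring pair of groups in the order of means from WT 14 d (12.40) down to WT 7 d (12.06). The genotype difference was 0.13 at 7 d (95% interval -0.17 to 0.42), -0.12 at 14 d (-0.38 to 0.14) and -0.03 at 21 d (-0.29 to 0.23). In WT tissue all 4 arrays of 14 d lay above the 3 arrays of 7 d, as did 5.72% of all probe sets, and the difference of 0.38 (standard error 0.14) did not pass the test (adjusted p = 0.251, limma). The other fibronectin probe set, 1437218_at, was dimmer, with group means from 6.84 to 7.35, and its genotype difference at 21 d was 0.43 (95% interval -0.11 to 0.96), opposite in sign to the brightest probe set.

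Vitronectin had a low signal, with a mean of 4.36 at 1420484_a_at. Of 6 measured hepatocyte markers 5 were dim, meaning under 4.22, the median over the table, and albumin (Alb) had group means from 3.08 to 3.34. The upstream window of its start site, given because Vtn was 1 of 4 genes with separate genotypes at 14 d, held the letters TATAAA, shown in capitals with the overlapping match on the other strand. Such windows of 250 bases before a RefSeq start site were available for 6 of the 7 genes, all except Fn1, and TATAAA on either strand was found in 12.4% of 32817 windows. Of the other genes with separate genotypes at 14 d, Tnc had TATAAA in both of its windows, and Tnxb and Sparc had none. The windows of Tnc overlap and hold the same match. The windows of Tnc and Sparc are not shown. The Vtn window lies on the plus strand at chr11:78498870-78499119 of GRCm38.p6 and reads as follows.

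Vtn: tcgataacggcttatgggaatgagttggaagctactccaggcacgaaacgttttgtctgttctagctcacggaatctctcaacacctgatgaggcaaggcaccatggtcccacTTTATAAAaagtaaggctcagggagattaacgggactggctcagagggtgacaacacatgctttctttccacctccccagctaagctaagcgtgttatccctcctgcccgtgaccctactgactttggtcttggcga

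In WT tissue vitronectin read 3.77, 4.41 and 4.28 at 7 d, 4.72, 4.89, 5.27 and 4.38 at 14 d, and 4.43, 5.12, 3.84 and 5.04 at 21 d. In Mmp13-/- tissue it read 4.24, 4.31 and 4.06 at 7 d, 4.32, 4.25, 4.29 and 3.33 at 14 d, and 4.81, 4.16, 3.84 and 4.20 at 21 d. The genotypes were apart at 14 d and overlapped at the other days, and the lowest array of all was Mmp13-/- replicate 4 of 14 d, in hybridization series 2. The difference at 14 d was -0.77 (standard error 0.24, 95% interval -1.26 to -0.27), with an adjusted p of 0.911 from limma. Within series 1 it was -0.67. The WT means were 4.15 at 7 d and 4.82 at 14 d, and the difference fitted with the series term was 0.85 (standard error 0.26, adjusted p = 0.132, limma). It is a difference that passed the test when only series 1 was fitted (0.81, adjusted p = 0.0297) and when replicate 3 of WT 21 d was left out (adjusted p = 0.0444), while in Mmp13-/- tissue the difference was 0.04 (95% interval -0.52 to 0.59). The change of the genotype difference from 7 to 14 d was -0.82 (standard error 0.36, unadjusted p = 0.0352, adjusted p = 1, limma). No probe set of the table passed for this interaction (0%), nor for that of 14 to 21 d, while 2.29% had an unadjusted p under 0.05 in the former.

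The other vitronectin probe set, 1455098_a_at, was dimmer still and did not share the difference at 14 d. Its 4 Mmp13-/- arrays of 14 d all read 3.27, equality to 2 decimals that 4 of 45037 probe sets had in that group, and the WT arrays read 3.06, 3.17, 3.58 and 2.95. At 21 d it was apart between genotypes, with 3.45, 3.53, 3.65 and 3.71 in WT and 3.27, 3.26, 3.36 and 3.13 in Mmp13-/- tissue, a pattern of 1.61% of all probe sets. That difference was -0.33 (standard error 0.11) with an adjusted p of 0.255 from limma. At 14 d its difference was 0.08 (95% interval -0.16 to 0.32). The 2 probe sets of Vtn therefore disagreed in sign at 14 d, and the study had picked this gene on these same arrays.

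Tenascin-C varied widely between mice at 7 d. The WT arrays read 9.39, 10.10 and 11.18 at 7 d, 10.19, 10.49, 10.64 and 10.34 at 14 d, and 9.84, 9.73, 10.01 and 10.09 at 21 d. The Mmp13-/- arrays read 10.08, 9.74 and 10.44 at 7 d, 10.14, 9.90, 9.84 and 10 at 14 d, and 10.06, 9.93, 9.70 and 9.77 at 21 d. The SD of WT tissue at 7 d was 0.90 against 0.19 at 14 d, and all WT arrays of 14 d lay above the Mmp13-/- arrays of that day. The genotype difference at 14 d was -0.45 (standard error 0.24, 95% interval -0.96 to 0.07), with an adjusted p of 0.999 from limma. It was -0.14 at 7 d (95% interval -0.73 to 0.45) and -0.05 at 21 d (-0.56 to 0.46). The order of means ran from WT 14 d (10.42) to Mmp13-/- 21 d (9.87), with neighbouring groups overlapping throughout.

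Skeletal muscle markers moved with Tnc on the arrays of 7 d. The mean of 7 markers was 5.71, 9.11 and 10.25 on the WT arrays and 9.23, 6.30 and 10 on the Mmp13-/- arrays, in the same replicate order as above. Within each genotype at 7 d the order of the arrays was the same for Tnc and for these markers. This was not particular to skeletal muscle. The mean of 8 myofibroblast and smooth muscle markers had the same order, with 5.466, 6.321 and 6.764 in WT and 6.197, 6.193 and 6.503 in Mmp13-/- tissue. Macrophage markers had the reverse order, with 11.26, 11.01 and 10.89 in WT and 10.96, 11.23 and 10.81 in Mmp13-/- tissue. The genes closest to Tnc over all 22 arrays, after the series term was taken off, were Enah (Pearson r = 0.84), Cav3 (0.82), which encodes the muscle caveolin, and Srpk3 (0.81), a kinase gene of striated muscle. At 14 d the skeletal muscle mean ran from 8.32 to 9.54 in WT and from 6.60 to 10.08 in Mmp13-/- tissue. The genotypes that were apart in Tnc therefore overlapped in skeletal muscle markers. The part of muscle tissue or of other cell types in the Tnc values was not tested. A second probe set of Tnc, 1456344_at, was dim with a mean of 3.75 and group means from 3.29 to 4.13.

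**Figure D3:**
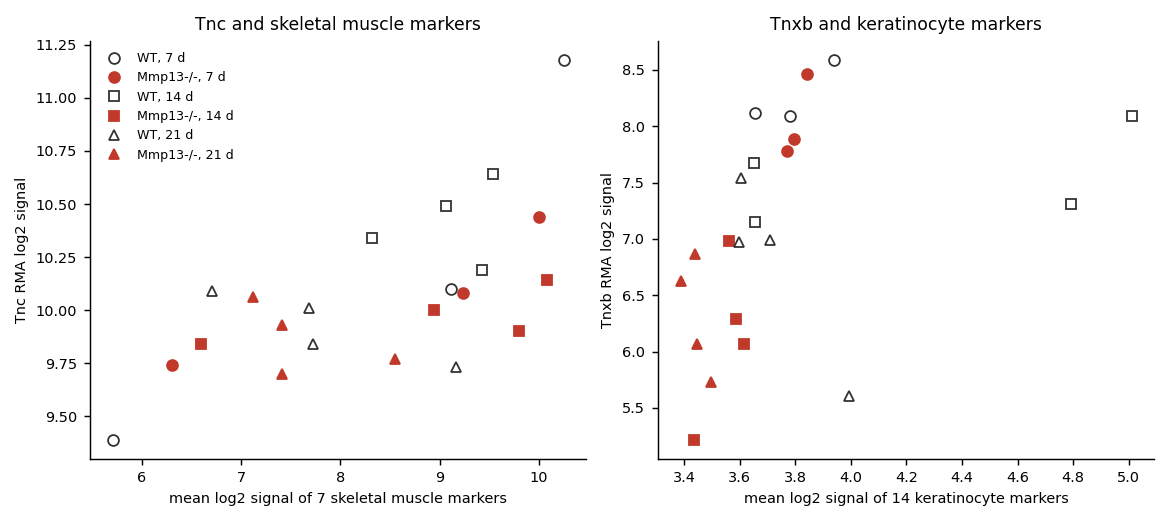
Left, log2 signal of Tnc (vertical axis) against the mean log2 signal of 7 skeletal muscle markers (horizontal axis), and right, log2 signal of Tnxb against the mean of 14 keratinocyte markers, with 1 point per array, WT open and Mmp13-/- filled, and a symbol per day. The WT array of 7 d with the highest Tnc (11.18) also had the highest muscle mean (10.25), and 2 WT arrays of 14 d stood apart in keratinocyte markers (4.79 and 5.01).

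Tenascin-X had the only difference among the members that passed the test. From 7 to 14 d in Mmp13-/- tissue it fell by 1.98 on the log2 scale in the fit, or 3.93-fold (standard error 0.41, adjusted p = 0.0278, limma), with means of 8.04 and 6.14. This was 1 of 15 member probe sets called in that comparison, in which 0.628% of all probe sets were called in either direction. None of the 15 was called in the other comparisons of days (limma). The calls there made up 1.7% (7 to 14 d in WT), 0.42% (14 to 21 d in WT) and 0.0799% (14 to 21 d in Mmp13-/- tissue) of probe sets. In the same order the members had 3, 7 and 2 probe sets at an unadjusted p under 0.05 (limma), where the whole table had 10.1%, 14.1% and 13.7%. The 7 included every probe set of Tgfbi, and by the brightest probe set of each gene the counts were 3, 1 and 1. A RefSeq start site of Tnxb lies inside the annotated gene at chr17:34660453-34719815 on GRCm38.p6. Its upstream window is on the plus strand at chr17:34670285-34670534. It is shown because Tnxb carries this result, and its capitals mark the letters TGANTCA, the pattern of an AP-1 site, which 6.75% of all windows held on either strand.

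Tnxb: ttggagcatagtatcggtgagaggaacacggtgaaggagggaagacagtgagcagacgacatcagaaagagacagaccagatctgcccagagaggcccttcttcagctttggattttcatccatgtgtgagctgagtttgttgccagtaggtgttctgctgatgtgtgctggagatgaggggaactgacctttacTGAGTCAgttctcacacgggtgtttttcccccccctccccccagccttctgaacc

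The Mmp13-/- arrays of Tnxb read 8.46, 7.89 and 7.78 at 7 d, 6.07, 6.29, 5.22 and 6.98 at 14 d, and 6.63, 6.07, 6.87 and 5.73 at 21 d. The WT arrays read 8.59, 8.09 and 8.12 at 7 d, 7.31, 7.67, 8.09 and 7.15 at 14 d, and 6.97, 7.54, 5.61 and 6.99 at 21 d. Every Mmp13-/- array of 14 d lay below every Mmp13-/- array of 7 d, a pattern of 4.46% of all probe sets, whereas WT arrays of 7 d and 14 d met at 8.09. The WT means were 8.27, 7.56 and 6.78 at 7, 14 and 21 d, and the fitted differences were -0.78 from 7 to 14 d (standard error 0.41, 95% interval -1.65 to 0.08) and -0.995 from 14 to 21 d (95% interval -2.02 to 0.03), neither past the test (adjusted p = 0.595 and 0.371, limma). The difference from 14 to 21 d in Mmp13-/- tissue was -0.03 (95% interval -1.06 to 0.99). The call in Mmp13-/- tissue was made in series 1 alone (difference -2.18, adjusted p = 0.00529), and was lost without any of the 3 Mmp13-/- arrays of 7 d (adjusted p from 0.0559 to 0.187) and without replicate 1, 2 or 3 of Mmp13-/- 14 d (0.0731 to 0.180), with the difference between -1.63 and -2.11.

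Between genotypes Tnxb was lower in Mmp13-/- tissue at 14 d, 2.67-fold in the mean, with no overlap of arrays (log2 difference -1.42, 95% interval -2.19 to -0.64). The unadjusted p was 0.00112 and the adjusted p 0.625 (limma). The difference lay in hybridization series 1, where it was -1.83 (adjusted p = 0.0931, limma), while in series 2 the only WT array read 7.15 and the only Mmp13-/- array 6.98. It was -0.22 at 7 d (95% interval -1.12 to 0.67) and -0.45 at 21 d (-1.23 to 0.32), and its change from 7 to 14 d was -1.19 (standard error 0.57, unadjusted p = 0.0486, adjusted p = 1, limma). The mean over the 3 days was -0.70 (standard error 0.23, adjusted p = 0.466, limma), in a comparison in which 0.0688% of probe sets were called. The study had named Tnxb from these arrays, so its direction is not independent evidence.

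Cell type markers were set beside Tnxb. The mean of 14 keratinocyte markers, 11 of them dim, was 4.79 and 5.01 on WT replicates 1 and 3 of 14 d and between 3.39 and 3.99 on all other arrays. Without those 2 arrays the genotype difference of Tnxb at 14 d was -1.15 (standard error 0.47, adjusted p = 1, limma) and the Mmp13-/- fall over the first interval kept its call (difference -2.02, adjusted p = 0.0355, limma). The mean of 10 fibroblast markers at 14 d ran from 10.33 to 10.48 in WT and from 10.15 to 10.27 in Mmp13-/- tissue, without overlap. The mean of 5 adipocyte markers ran from 5.56 to 6.51 at 7 d and from 4.53 to 5.75 at 14 d in Mmp13-/- tissue, and from 6.03 to 7.99 and from 4.95 to 6.31 in WT, with the days overlapping in each genotype. The part of these cell types in the result was not tested.

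The genes closest to Tnxb were Cd34 (r = 0.97 over 22 arrays), which encodes a surface sialomucin of endothelial and stromal cells, Scara3 (0.95) and Htra3 (0.93). Cd34 had means of 10.16 in WT and 10.05 in Mmp13-/- tissue at 7 d, 9.34 and 8.53 at 14 d, and 8.51 and 8.15 at 21 d. Endothelial markers, a list of 8 genes without Cd34, had ranges at 14 d of 6.64 to 7.72 in WT and 6.39 to 6.91 in Mmp13-/- tissue, which overlapped. All 8 had a lower mean in Mmp13-/- tissue at 14 d (median difference -0.37, 1 at an unadjusted p under 0.05, limma). At 7 d, 7 of the 8 were higher in Mmp13-/- tissue (median 0.66, 2 at an unadjusted p under 0.05, limma). Their mean on the arrays of 7 d was 5.18, 7.07 and 6.47 in WT and 6.45, 6.88 and 7.08 in Mmp13-/- tissue. WT replicate 1 was thus far below the others, and it enters every comparison with WT tissue of 7 d. Without it the genotypes overlapped at 7 d, and the WT arrays of 7 d overlapped with those of 14 d. The part of this array in the differences below was not tested. In WT the list rose from 7 to 14 d (median 1.16), with 6 genes higher at an unadjusted p under 0.05 (limma), where 7.35% of all genes were. The WT mean of Tnxb was lower at 14 d than at 7 d. In the interaction of 7 to 14 d 6 of the markers had an unadjusted p under 0.05 (limma), all negative (median of the 8 -1.05). Of all genes 2.01% did in that direction. The part of these markers in the Tnxb values was not tested. Of the other members, Tgfbi was closest to Tnxb in this sense (r = 0.59) and Postn was opposed (r = -0.57).

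Periostin was higher at 14 d than at 7 d in both genotypes, although neither difference passed the adjusted threshold. The WT arrays read 11.54, 11.79 and 12.34 at 7 d, 12.37, 12.30, 12.70 and 12.37 at 14 d, and 12.45, 12.50, 12.61 and 12.48 at 21 d. The Mmp13-/- arrays read 11.94, 11.58 and 11.85 at 7 d, 12.37, 12.37, 12.38 and 12.08 at 14 d, and 12.37, 12.41, 12.38 and 12.05 at 21 d. All Mmp13-/- arrays of 14 d lay above those of 7 d, as did 5.94% of all probe sets, while in WT replicate 3 of 7 d overlapped with 14 d. The fitted difference was 0.59 in WT (standard error 0.16, adjusted p = 0.0602, limma) and 0.56 in Mmp13-/- tissue (standard error 0.16, adjusted p = 0.154), where 1.7% and 0.628% of probe sets were called. The WT difference passed in 4 of the alternative settings (adjusted p from 0.0303 to 0.0492), without replicate 4 of Mmp13-/- 21 d (adjusted p = 0.0490), and without replicate 3 of WT 7 d, where it was 0.82 (adjusted p = 0.00542). Leaving out that same array also brought the Mmp13-/- difference past the threshold (adjusted p = 0.0440).

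RefSeq gives Postn 2 start sites, and both windows are shown because periostin had the lowest adjusted p among members with a higher mean at the later day. The second, further downstream, held TATAAA in capitals, and the first held none. Both are on the plus strand, the first at chr3:54359017-54359266 and the second at chr3:54360857-54361106 of GRCm38.p6. A match is a description of letters and the arrays do not separate transcripts from these sites.

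Postn start 1: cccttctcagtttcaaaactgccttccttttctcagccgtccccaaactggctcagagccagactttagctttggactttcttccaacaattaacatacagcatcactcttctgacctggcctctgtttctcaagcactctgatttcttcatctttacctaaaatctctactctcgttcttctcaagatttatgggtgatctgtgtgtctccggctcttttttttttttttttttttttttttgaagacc
Postn start 2: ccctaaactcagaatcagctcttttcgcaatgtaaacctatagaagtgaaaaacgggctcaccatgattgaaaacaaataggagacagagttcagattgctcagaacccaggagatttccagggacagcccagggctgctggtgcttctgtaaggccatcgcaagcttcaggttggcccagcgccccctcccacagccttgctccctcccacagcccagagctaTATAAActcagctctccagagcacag

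At 21 d every Mmp13-/- array of Postn lay below every WT array, a pattern of 1.61% of all probe sets. The difference was -0.21 (standard error 0.14, 95% interval -0.50 to 0.08), or 1.15-fold, with an adjusted p of 0.584 from limma. At 7 d it was -0.10 (95% interval -0.44 to 0.24) and at 14 d -0.14 (-0.43 to 0.16). In the order of means the groups of 14 d and 21 d stood between 12.30 and 12.51 and those of 7 d at 11.89 and 11.79, with each neighbouring pair overlapping. The genes most like Postn were Thbs2, which encodes thrombospondin-2 (r = 0.96 over 22 arrays), Fibin (0.96) and Srpx2 (0.95).

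Tgfbi ran the other way from Postn, with its lowest means at 21 d, and its 4 probe sets shared this order of days. The brightest, 1448123_s_at, read 11.23, 11.67 and 11.97 in WT at 7 d, 11.43, 11.56, 11.91 and 11.31 at 14 d, and 10.56, 10.33, 10.59 and 11.25 at 21 d. Its Mmp13-/- arrays read 11.64, 11.67 and 11.62 at 7 d, 11.42, 11.30, 11.21 and 11.21 at 14 d, and 10.74, 10.98, 10.76 and 10.74 at 21 d. At this probe set all arrays of 21 d lay below all arrays of 14 d in each genotype, as they did at 5.43% of all probe sets in WT and 4.81% in Mmp13-/- tissue. At 1415871_at the WT days overlapped, with 14 d down to 10.05 and 21 d up to 10.17. These signals are not adjusted for the series, and the fitted shift of series 2 ran from -0.21 to -0.57 over the 4 probe sets. In the order of means the only gap without overlap among all neighbours of this gene was that between Mmp13-/- 14 d (11.29) and Mmp13-/- 21 d (10.81). In Mmp13-/- tissue all arrays of 14 d also lay below all arrays of 7 d at each of the 4 probe sets, a pattern of 4.46% of all probe sets. The fitted difference from 7 to 14 d at the brightest was -0.31 (95% interval -0.70 to 0.09).

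The difference of Tgfbi from 14 to 21 d was -0.71 in WT (standard error 0.22, adjusted p = 0.145, limma) and between -0.65 and -0.89 at the other 3 probe sets. In that fit 189 of all probe sets (0.42%) were called in WT and none of Tgfbi. All 4 of its probe sets passed when the series term was left out (difference -0.87 at the brightest, adjusted p = 0.00462), but 4657 of all probe sets then did, and they passed when replicate 4 of WT 21 d, which read 11.25, was left out (-0.90, adjusted p = 0.0249), where 671 of all did (limma). The difference was -0.32 in Mmp13-/- tissue (95% interval -0.79 to 0.14). The genotype difference was 0.02 at 7 d (95% interval -0.39 to 0.43), -0.27 at 14 d (-0.62 to 0.08) and 0.12 at 21 d (-0.23 to 0.47). Closest to Tgfbi were Gcnt2 (r = 0.90 over 22 arrays), Mapkapk2 (0.89) and Csnk1a1 (0.88), and within series 1 these values were 0.69, 0.47 and 0.72.

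**Figure D4:**
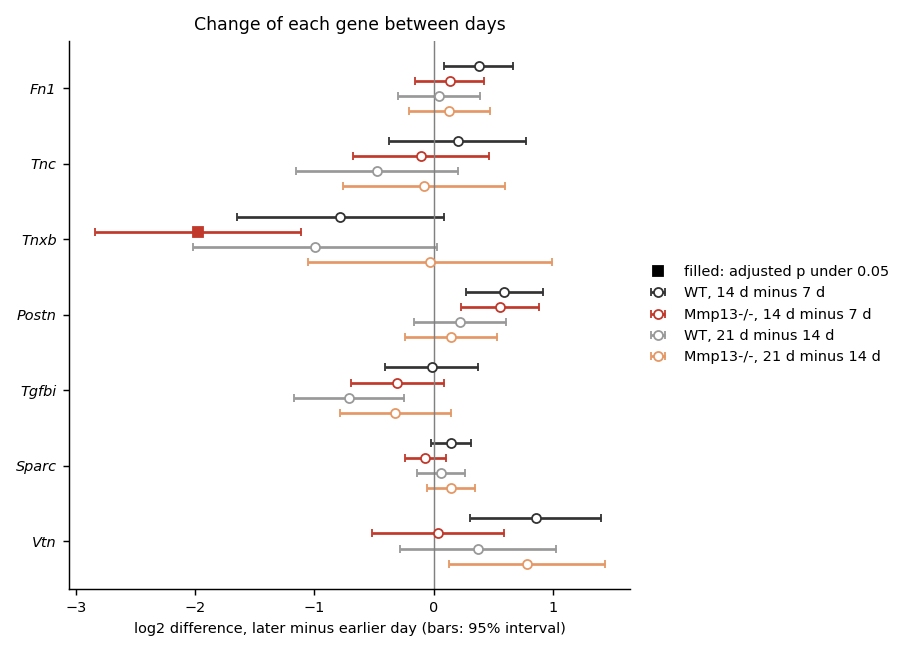
Log2 difference of the later minus the earlier day (horizontal axis) with its 95% interval from limma for each gene (vertical axis), for 14 d against 7 d and 21 d against 14 d in WT and in Mmp13-/- tissue. The filled square is the fall of Tnxb in Mmp13-/- tissue from 7 to 14 d (-1.98), and Postn lies above 0 in both genotypes over the same days.

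At its brightest probe set, 1416589_at, Sparc stayed between 12.80 and 13.19 on all arrays, with a mean signal of 12.97. The WT arrays of 1416589_at read 12.92, 12.90 and 12.98 at 7 d, 13.03, 13.01, 13.19 and 13 at 14 d, and 13.08, 13.07, 13.01 and 13.04 at 21 d. The Mmp13-/- arrays read 12.99, 12.88 and 13.02 at 7 d, 12.92, 12.87, 12.90 and 12.80 at 14 d, and 13.06, 12.91, 12.96 and 12.88 at 21 d. The genotypes were apart at 14 d only, and by a small step. The difference was -0.19 (standard error 0.07, 95% interval -0.34 to -0.03), or 1.14-fold, with an adjusted p of 0.999 from limma. A second bright probe set, 1448392_at, gave -0.21 (standard error 0.08, adjusted p = 0.999) with overlapping arrays, and the dim 1458204_at gave -0.02 (95% interval -0.43 to 0.39). Genotype differences at 7 d and 21 d were 0.03 (95% interval -0.15 to 0.21) and -0.10 (-0.25 to 0.05).

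The genes closest to Sparc over 22 arrays were Mmp2, which encodes gelatinase A (r = 0.91), Prnp (0.88) and Wwtr1 (0.88). Prnp was also among the 3 closest to Vtn (r = 0.87), after Afap1l2 (0.92) and Zcchc14 (0.89), and Thbs2 was among the closest to both Postn and Fn1 (0.81 with Fn1). The other genes closest to Fn1 were Golim4 (0.81) and Atp2a2 (0.81). Among members, Fn1 correlated most with Postn (r = 0.74) and not with Tnc (r = 0.02). These correlations describe the 22 arrays, which share days, genotypes and hybridization series.

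Genes that work with the members were counted in 4 lists. Of 16 receptors, none was called between genotypes at any day (limma), with 1, 2 and 3 genes at an unadjusted p under 0.05 at 7, 14 and 21 d, where all genes had 2.99%, 4.76% and 12.1%. Itgb5, a chain of a vitronectin-binding integrin, rose by 0.65 from 7 to 14 d in WT (adjusted p = 0.0136), Stab1 rose by 0.92 in Mmp13-/- tissue over the same days (adjusted p = 0.0278) and Stab2 rose by 1.02 from 14 to 21 d in WT (adjusted p = 0.0261, limma). Of all genes 2.54%, 0.945% and 0.561% were called in these comparisons. Stab1 and Stab2 encode scavenger receptors of macrophages and sinusoidal endothelium that take up Sparc and hyaluronan, respectively.

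Of 21 measured partners in the matrix, 18 had a lower mean in Mmp13-/- tissue at 14 d, with a median difference of -0.18 against 0 for all genes. The 8 genes at an unadjusted p under 0.05 were all lower, as were 2.94% of all genes, and Lum, the collagen-fibril proteoglycan lumican, was the only call (difference -0.94, standard error 0.15, adjusted p = 0.0274, limma). Among all genes 0.022% were called in that comparison. At 21 d 18 of the 21 again had a lower mean (median -0.115), and 4 were lower at an unadjusted p under 0.05, as were 6.78% of all genes. The tilt was the other way at 7 d, where 16 had a higher and 5 a lower mean in Mmp13-/- tissue (median 0.067). There 2 were higher and 1 lower at an unadjusted p under 0.05 (limma), against 1.88% and 1.11% of all genes. From 7 to 14 d in WT, 17 of the 21 partners had a positive difference and 4 a negative one. Of these, 6 were called higher and none was called lower, where 2.54% of genes were called in either direction (limma). Among the 6 were Col12a1 (1.79, adjusted p = 3.15e-06), Fmod (4.55, adjusted p = 0.000259) and Fbln1 (1.24, adjusted p = 0.000302, limma). In Mmp13-/- tissue 14 had a positive and 7 a negative difference over these days. There 4 were called higher, with Col12a1 at 1.30 and Fmod at 4.52. Only Dcn, which encodes decorin, was called lower (-0.48, adjusted p = 0.0128, limma), where 0.945% of genes were called.

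Of 23 measured relatives among adhesive and matricellular proteins, 16 had a lower mean in Mmp13-/- tissue at 14 d, with a median difference of -0.25, and none was called (limma), while 7 had an unadjusted p under 0.05, all lower, as were 2.94% of all genes. From 7 to 14 d in WT 16 of the 23 had a positive difference, and 7 were called higher and none lower (limma). Among the 7 were Smoc2, a Sparc relative, at 2.53 (adjusted p = 3.15e-06), Ccn4 at 1.62 (adjusted p = 0.00143) and Emilin1 at 0.69 (adjusted p = 0.003, limma). Ccn4 rose in Mmp13-/- tissue by 1.23 (adjusted p = 0.0228) and Smoc2 by 0.996 (adjusted p = 0.0429, limma). Of 15 genes of TGF-beta and type 2 cytokine signalling, Tgfb3 rose from 7 to 14 d by 1.47 in WT (adjusted p = 0.00163) and by 1.34 in Mmp13-/- tissue (adjusted p = 0.00718), and Il13ra2, the decoy receptor of interleukin 13, fell by 1.46 in Mmp13-/- tissue (adjusted p = 0.0118, limma). None of these 15 was called between genotypes at 7, 14 or 21 d (limma), with 0, 3 and 2 at an unadjusted p under 0.05, against the shares of all genes given for the receptors.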

How the data were processed

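Granulation tissue RNA of 22 mice was hybridized to Affymetrix 3' arrays. The deposited values are RMA log2 signals, which the authors normalized between arrays in Chipster; whether all arrays were normalized in 1 run is not given in the sources used here. RMA pulls low signals together, so differences of dim probe sets are compressed.

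A linear model with 6 genotype-by-day means and a hybridization series term was fitted to 45037 probe sets (64 controls left out, no filter on signal) with limma 3.58.1 in R 4.3.3, with 15 residual and 4.57 prior degrees of freedom. P-values were adjusted by Benjamini-Hochberg over all probe sets and called under 0.05. Exact permutation tests (two-sided) used scipy 1.17.1. Of the probe sets, 34945 had 1 gene symbol, 932 several and 9160 none. The rule for named genes takes every member, up to 3 genes of each list per comparison with the smallest adjusted p, and for each member the 3 genes of highest correlation, a gene being its brightest probe set. The members and lists were chosen with earlier results of these data known. Arrays are replicates by label, and the number of arrays limits the precision. The fit was tested on simulated data. Alternatives were no series term, only the groups compared, series 1 alone, a replicate block, median centring, quantile normalization, a signal filter, a trended and robust variance, leaving out each array, the mean of a gene's probe sets and, chosen after seeing the data, leaving out 2 WT arrays of 14 d with high keratinocyte signal.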

Additional observations from a re-analysis of the deposited data

Results flagged for a closer look

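In groups of 4 arrays, 7 of the 59 groups scanned over the 15 member probe sets held an array whose gap to its neighbour was past Dixon's 95% limit for the share of the group's range, which chance gives in about 1 of 20 groups. For Postn the lowest Mmp13-/- array read 12.08 at 14 d and 12.05 at 21 d. For Tgfbi at 1448123_s_at the highest Mmp13-/- array of 21 d read 10.98. For Sparc the highest WT array of 14 d read 13.19 at 1416589_at, the lowest Mmp13-/- array of 14 d read 12.15 at 1448392_at, and the highest WT array of 21 d read 5.18 at 1458204_at. For Vtn the lowest Mmp13-/- array of 14 d read 3.33 at 1420484_a_at. The low Mmp13-/- arrays of 14 d for Postn, Sparc and Vtn are all replicate 4, the only Mmp13-/- array of that day in hybridization series 2, and the part of the series in these values was not tested.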

How the results depend on the processing

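Of 658 values of a gene under an alternative that did not leave out a single array, 629 kept their direction and side of the threshold, and 22 changed sign. With single arrays left out, 1482 of 1540 did and 47 changed sign. The 23 differences that ever changed sign were all uncalled, with at most 0.37 in size; the cause was not tested.

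The dim probe sets of Vtn and Tnc lie at or under the median signal and limit what can be compared. The number of member probe sets called from 7 to 14 d in WT was 0 in the main fit and 1 in series 1 alone, with the replicate block, with median centring, with the signal filter and with a trended and robust variance, where 727 to 1095 of all probe sets were called against 767, and 0 to 1 with single arrays left out. In Mmp13-/- tissue it was 1, and 0 with a trended and robust variance (Tnxb difference -1.98, adjusted p = 0.0505, limma; 352 of all called against 283), and 0 to 2 with single arrays left out. From 14 to 21 d in WT it was 0 where 189 of all probe sets were called, 6 without the series term, where 4657 were, and 0 to 4 with single arrays left out, where 6 to 671 were. Replicate numbers were not taken to pair the arrays: deviations of same-numbered WT and Mmp13-/- arrays correlated between -0.16 and 0.61, over 0.1 in 6 of 11 pairs, and although all 4 pairs of 14 d were among these, within series 1 the 3 that remain gave -0.03, -0.14 and -0.07. With the replicate block the fall of Tnxb in Mmp13-/- tissue kept its call (adjusted p = 0.0391, limma) and Postn passed from 7 to 14 d in WT (difference 0.59, adjusted p = 0.0380).

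With the mean of a gene's probe sets, Fn1 turned to 0.10 at 14 d, 0.20 at 21 d and 0.14 over the 3 days between genotypes and to -0.0544 from 14 to 21 d in WT. By the same mean Tnc turned to 0.22 between genotypes at 21 d, -0.0769 from 7 to 14 d in WT and 0.0054 in the interaction of 7 to 14 d, Tgfbi to 0.000625 from 7 to 14 d in WT, and Sparc to 0.0325 between genotypes at 21 d and -0.10 from 14 to 21 d in WT. Without the series term, the differences from 14 to 21 d turned to -0.0775 for Fn1 in WT, 0.19 for Tnxb in Mmp13-/- tissue, -0.0075 for Sparc in WT and -0.21 for Vtn in WT, and Vtn turned to -0.16 from 7 to 14 d in Mmp13-/- tissue. With only the groups compared, Fn1 turned to -0.0225 from 14 to 21 d and Tgfbi to 0.01 from 7 to 14 d in WT, and with the replicate block Fn1 turned to -0.0688 from 14 to 21 d in WT. Tnxb turned to 0.0785 from 14 to 21 d in Mmp13-/- tissue with quantile normalization. In series 1 alone Tgfbi turned to 0.01 from 7 to 14 d in WT and the Postn interaction of 7 to 14 d to 0.0167, as it did to 0.028 without the 2 WT arrays of high keratinocyte signal.

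With single arrays left out, genotype differences at 7 d ran from -0.0217 to 0.21 for Fn1, -0.55 to 0.34 for Tnc, -0.28 to 0.13 for Postn, -0.18 to 0.19 for Tgfbi and -0.14 to 0.18 for Vtn. Those at 21 d ran from -0.0875 to 0.0758 for Fn1 and -0.12 to 0.005 for Tnc, and those over the 3 days from -0.0564 to 0.0283 for Fn1 and -0.11 to 0.0214 for Tgfbi. From 7 to 14 d, Tnc ran from -0.22 to 0.68 and Tgfbi from -0.21 to 0.16 in WT, and Tnc from -0.28 to 0.0675 and Vtn from -0.0354 to 0.0896 in Mmp13-/- tissue. From 14 to 21 d, Fn1 ran from -0.0225 to 0.15 in WT, and in Mmp13-/- tissue Tnc from -0.15 to 0.005 and Tnxb from -0.66 to 1.01, the highest without Mmp13-/- replicate 4 of 14 d. Interactions ran from -0.79 to 0.11 for Tnc and -0.26 to 0.14 for Postn over 7 to 14 d, and from -0.15 to 0.0117 for Postn over 14 to 21 d.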
